A study of Mus musculus with 36 samples.

Results

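The effect of a 60% high-fat diet (60% HFD) on epididymal white adipose tissue (eWAT) was examined in CCL19-KI mice that carried no ligature, by comparing the 3 libraries of the 60% HFD group with the 3 libraries of the normal diet (ND) group, 6 of the 36 libraries of the series. CCL19-KI mice carry the murine *Ccl19* coding sequence at the *Adipoq* locus, so that adipocytes, the cells in which the *Adipoq* promoter is active, express this chemokine in both diet groups. All 6 mice were C57BL/6 males labelled Adipoq-CCL19-KI, entered their diet at 6 weeks of age and were fed it for 10 weeks. The question was which transcripts of the knock-in fat depot differ after a diet in which most of the calories come from fat. The sources describe RNA collection only for ligatured mice, with lymph nodes removed from the depot before extraction, and give no animal number for a library, so p-values measure the spread between libraries.

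White fat stores triglyceride, makes fatty acids from glucose, and secretes hormones such as leptin and adiponectin. In rodents on a high-fat diet adipocytes enlarge, leptin rises, and macrophages that take up lipid collect around dying adipocytes. CCL19 attracts dendritic cells and lymphocytes that carry its receptor CCR7, and in lymphoid tissue it guides them to T cell zones.

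Values are given as normalized CPM, depth-scaled counts (CPM) adjusted by the library factors of the authors, and log2 fold changes (log2FC) are differences between group means of log2(normalized CPM + 1), which understates changes of genes near 0. The 6 libraries held between 13717902 and 20248517 reads, so that 3 reads in a library corresponded to between 0.141 and 0.216 normalized CPM. Where 3 values are given for a group they are those of replicates 1, 2 and 3 in that order. "Called" means an adjusted p below 0.05 by limma with Benjamini-Hochberg adjustment over the 16923 genes tested, and only called genes are said to have risen or fallen. Genes are said to have met the DEG criteria when the unadjusted p was at most 0.05 and the ratio was at least 1.5 or at most 0.67.

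One library went against its genotype label. *Ccl19* stood at 16.4, 16.0 and 11.8 normalized CPM in ND replicates 1, 2 and 3, and at 5.57, 11.8 and 0.687 in 60% HFD replicates 1, 2 and 3. *Gm2564*, a *Ccl19*-like gene that was near 0 in WT libraries, stood at 37.7, 35.2 and 15.3 in the ND group and at 11.7, 15.0 and 0 in the 60% HFD group. Replicate 3 of the 60% HFD group thus had the levels of WT mice for both, since the other 17 WT libraries of the series held at most 4.51 of *Ccl19* and 0.16 of *Gm2564* once the ND-fed WT replicate 2, which had levels of knock-in mice, was set aside. The library labelled CCL19-KI 60% HFD replicate 3 is kept in the main values below, and every result is also given, or was checked, without it.

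**Figure D1:**
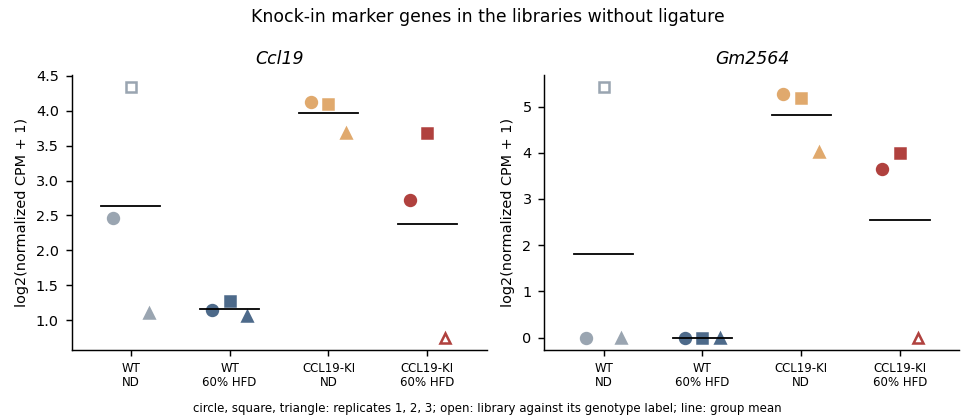
*Ccl19* and *Gm2564* in the 12 libraries of the WT and CCL19-KI mice without ligature on ND or 60% HFD, as log2(normalized CPM + 1) on the vertical axis; each point is a library and the line is the group mean. The open triangle, CCL19-KI 60% HFD replicate 3, lies at 0.69 normalized CPM of *Ccl19* and 0 of *Gm2564*, with the WT libraries, and the open square, WT ND replicate 2, lies with the knock-in libraries.

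Markers of other tissues also separated the libraries. The summed level of 12 hepatocyte markers was 1173, 29004 and 34092 normalized CPM in ND replicates 1, 2 and 3 and 937, 1624 and 1393 in the 60% HFD group, and the albumin gene *Alb* stood at 397, 11700.0 and 13696 and 444, 889.6 and 6.38. ND replicates 2 and 3 were thus high and ND replicate 1 lay among the 60% HFD libraries. All 12 hepatocyte markers met the DEG criteria as lower on 60% HFD (against 8.66% of all genes), with a median log2FC of -4.79. Without 60% HFD replicate 3, 8 did (against 6.35% of all genes), with a median of -3.25. In the WT mice of the same diets the order was the other way round, between 132 and 1542 on ND and between 10910.1 and 45196 on 60% HFD. Exocrine pancreas markers, such as the carboxypeptidase gene *Cpa1* with 0.0472, 17.6 and 12.1 on ND and 0, 0.0721 and 0 on 60% HFD, met the criteria as lower for 6 of 7 genes, and kidney tubule markers for 3 of 7, of which 0 did without 60% HFD replicate 3.

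Markers of the male tract lay on the other side. The 8 germ cell markers, which include the sperm protamines *Prm1* and *Prm2*, summed to 0.142, 1.73 and 2.83 normalized CPM on ND and to 1070.02, 13.6 and 179 on 60% HFD. All 8 met the DEG criteria as higher (against 10.5% of all genes), without overlap between the groups (against 9.73%), with a median log2FC of 3.65. A gene was tested only if it reached 1 normalized CPM in 3 or more libraries, which these did largely through libraries where they were high. Their count is therefore a description, and 7 were tested without 60% HFD replicate 3. The epididymis markers summed to 1.42, 563 and 45.5 on ND and to 364, 5209 and 12723 on 60% HFD, and the epididymal secretory gene *Crisp1* reached 275, 199.9 and 9541 in the 3 libraries of 60% HFD. The smooth muscle actin *Actg2* stood at 0.0944, 62.1 and 0.177 and 145, 577 and 69.9. ND replicate 1 also stood apart from ND replicates 2 and 3 in fat genes, with *Lep* at 2199, 128 and 199.5 in replicates 1, 2 and 3. The part of these tissues in the differences below was not tested, and values from a fit with the hepatocyte score as a covariate, an alternative chosen after the data were seen, are given beside several of the genes and lists below.

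**Figure D2:**
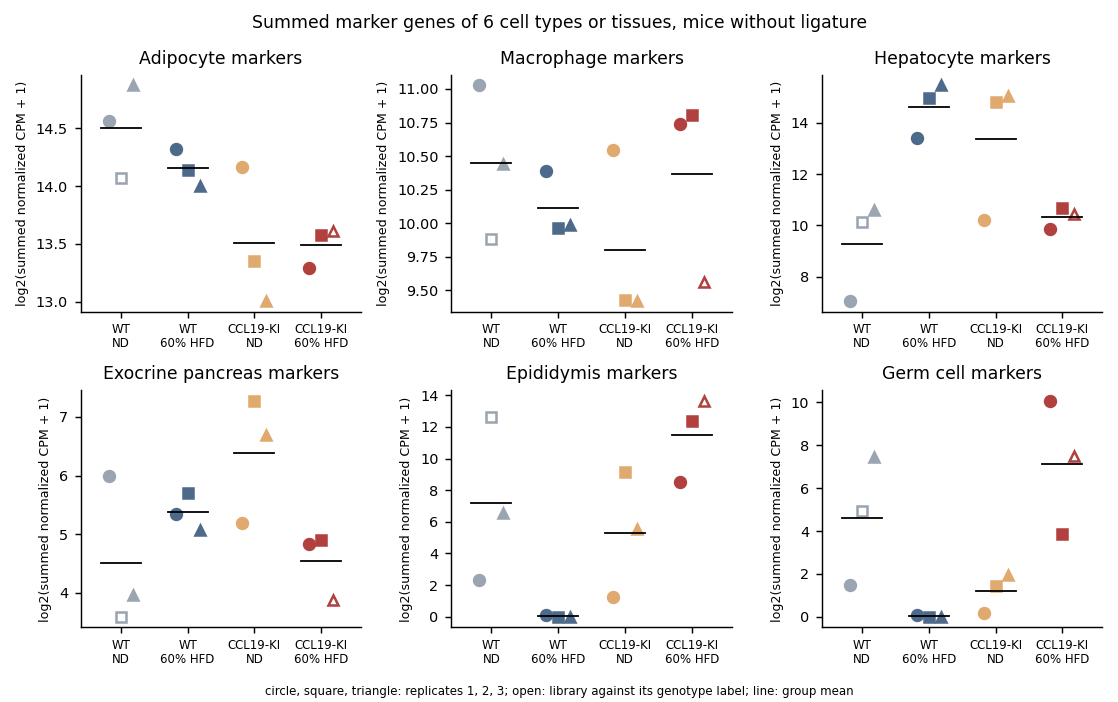
Summed normalized CPM of the marker lists of 6 cell types or tissues, as log2(sum + 1), in the same 12 libraries; points are libraries and lines are group means. Hepatocyte markers are high in ND replicates 2 and 3 of CCL19-KI mice and in the 3 WT 60% HFD libraries, the germ cell markers of the 3 CCL19-KI 60% HFD libraries lie above those of the 3 ND libraries, and both male tract lists are at or near 0 in WT 60% HFD libraries.

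Few genes separated the diets once all genes were adjusted for. Of 16923 genes, 21 were called, 0.124% of those tested, with 14 higher and 7 lower on 60% HFD. The DEG criteria were met by 3240 genes (19.1%), 1774 of them higher (10.5%) and 1466 lower (8.66%), and the median log2FC of all genes was 0.07. Without 60% HFD replicate 3, 9 of 16712 genes were called (0.0539%), 8 higher and 1 lower, 5 of them among the 21, and 2620 (15.7%) met the DEG criteria, 1559 higher (9.33%) and 1061 lower (6.35%). Without that library and ND-fed WT replicate 2 it was 63 of 16451 genes (0.383%), 15 of them among the 21. The count rested on single libraries, being 2252 without ND replicate 1, 0 without ND replicate 2, 0 without ND replicate 3, 167 without 60% HFD replicate 1 and 647 without 60% HFD replicate 2. Where it was 0, limma gave an unadjusted p below 0.05 for 2252 and 2144 genes, against 4071 (24.1%) with every library, and edgeR called 22 genes with every library. With the hepatocyte score as covariate 544 genes met the DEG criteria as higher (3.21%) and 284 as lower (1.68%), and the medians of 12 of the 43 gene lists changed sign. After quantile normalization 14 genes were called higher and 20 lower, so the balance of rises and falls turned under that scaling.

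The falls were genes of the liver. Of the 7 called falls 6 were major urinary protein (MUP) genes, which encode pheromone-binding lipocalins secreted by the mouse liver, and the other was *Serpina1e*, an alpha-1-antitrypsin gene of hepatocytes. *Mup7* (gene ENSMUSG00000073842, GRCm38 chromosome 4, 60066469 to 60070475) stood at 84.2, 1358 and 5886 normalized CPM on ND and at 1.82, 1.23 and 2.36 on 60% HFD. Each ND library lay far above each 60% HFD library, including ND replicate 1, with a log2FC of -8.32 ± 1.10 (SE, limma adjusted p = 0.0124; adjusted p = 0.03 without 60% HFD replicate 3). *Serpina1e*, at 27.1, 3385 and 1319.9 on ND and 2.27, 2.74 and 1.96 on 60% HFD, fell by 7.24 on the log2 scale (limma adjusted p = 0.0418, and 0.109 without 60% HFD replicate 3). *Mup14*, *Mup19*, *Mup1*, *Mup11* and *Mup15* had log2FC between -6.97 and -6.44, and none of these was called without 60% HFD replicate 3. With the hepatocyte score as covariate limma called 0 genes, with 946 at an unadjusted p below 0.05, and *Mup7* had a log2FC of -5.41. Over the alternatives run, its adjusted p lay between 0.000124 and 0.682, and between 4.27e-05 and 0.0942 when single libraries were left out.

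The MUP family was lower as a whole. The table held 22 MUP genes, of which 19 were tested. Of these, 17 met the DEG criteria as lower (against 8.66% of all genes) and 6 were called. The median log2FC was -5.25, or -4.41 without 60% HFD replicate 3. *Mup17*, *Mup3*, *Mup12* and *Mup16* were among those that met the criteria without being called. Their summed level was 516, 8302 and 33288 normalized CPM on ND and 135, 233 and 15.4 on 60% HFD. Between 16.1% and 100% of the 31-base words of a MUP transcript also occur in another MUP gene, so the split of reads among members is uncertain. *Cyp3a11*, a drug-metabolizing P450 of the liver, followed the same order with 23.1, 717 and 1566 on ND and 14.2, 22.9 and 0.196 on 60% HFD.

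The promoters of *Mup11* and *Mup19* are shown to let a reader see how alike 2 called members of this family are before their starts. The RefSeq promoter tables (GRCm38.p6, 250 bases before to 50 after the start, minus strand) place them at chr4:60662346-60662645 and chr4:61782175-61782474, and their longest identical stretch is 168 bases. Capitals mark the motif TATATAA, a form of the core promoter element that binds TBP, which was searched on both strands. It was held by 3.24% of all 32851 promoters and by 4 of the 6 called falls that have a promoter there (*Mup11*, *Mup14*, *Mup15* and *Mup19*). Pairs of these 4 share identical stretches of 72 to 275 bases, so they are not independent and the count is a description.
Mup11: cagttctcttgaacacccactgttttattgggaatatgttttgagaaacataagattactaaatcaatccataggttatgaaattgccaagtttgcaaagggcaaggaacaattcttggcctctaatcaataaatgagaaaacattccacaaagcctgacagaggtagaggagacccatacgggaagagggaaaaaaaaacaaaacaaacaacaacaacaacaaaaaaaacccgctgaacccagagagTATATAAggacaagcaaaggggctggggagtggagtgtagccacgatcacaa
Mup19: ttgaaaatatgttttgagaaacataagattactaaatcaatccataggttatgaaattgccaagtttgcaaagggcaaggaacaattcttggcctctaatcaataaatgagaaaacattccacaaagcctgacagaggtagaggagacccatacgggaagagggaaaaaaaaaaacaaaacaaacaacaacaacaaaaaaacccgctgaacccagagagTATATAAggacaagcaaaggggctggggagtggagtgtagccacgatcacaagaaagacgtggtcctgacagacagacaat

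Among the 14 calls that rose were *Uhrf1*, *Fen1* and *Rrp1*. *Uhrf1*, which brings maintenance DNA methylation to newly copied DNA, stood at 1.37, 0.702 and 1.18 normalized CPM on ND and at 15.9, 7.35 and 5.45 on 60% HFD, and no ND library reached the lowest 60% HFD library. Its log2FC was 2.23 ± 0.36 (SE, limma adjusted p = 0.0271), and it stayed called without 60% HFD replicate 3 (log2FC 2.53, adjusted p = 0.03). *Fen1*, the flap endonuclease that trims Okazaki fragments, was at 2.50, 1.62 and 1.83 and 6.82, 8.22 and 6.28, with a log2FC of 1.45 (limma adjusted p = 0.0271, and 0.0748 without 60% HFD replicate 3). *Rrp1*, a factor of ribosomal RNA processing, had the smallest rise, from 64.4, 65.2 and 56.4 to 102, 96.6 and 104 (log2FC 0.69).

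The other called rises were in genes of varied function. *Pgp*, a phosphatase of phosphoglycolate and glycerol 3-phosphate, was at 17.8, 20.1 and 17.3 on ND and at 66.9, 43.5 and 47.2 on 60% HFD (log2FC 1.44, limma adjusted p = 0.0124, and 0.03 without 60% HFD replicate 3). *Sgms1*, which makes sphingomyelin, rose from 45.1, 30.9 and 30.0 to 62.5, 79.3 and 77.0, and *Rdh11*, a retinol dehydrogenase, from 9.48, 6.26 and 8.43 to 34.7, 17.3 and 25.1. *Med24*, a subunit of the Mediator complex, and the formin *Fhdc1* had log2FC of 1.20 and 2.06. *St6galnac2*, a sialyltransferase that caps O-glycans, rose from 2.55, 3.78 and 3.36 to 46.1, 66.3 and 34.8 (log2FC 3.53), and a second gene with the same symbol (ENSMUSG00000110170), whose reads may be shared with that of the first, had a log2FC of 2.73. Without 60% HFD replicate 3, *Pgp* and *Uhrf1* stayed called, with the predicted genes *Gm4202* and *Gm49337*, and the other 10 rises stayed above 0 with adjusted p between 0.0748 and 0.0876.

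*Trim36*, a ubiquitin ligase abundant in sperm cells, had the largest rise, from 2.55, 2.38 and 0.826 to 76.8, 25.2 and 55.0 normalized CPM (log2FC 4.12, limma adjusted p = 0.0177), and *Cnbd2*, a cyclic nucleotide-binding protein of sperm, went from 3.11, 4.27 and 3.42 to 19.9, 11.0 and 28.9 (log2FC 2.10). Without 60% HFD replicate 3 the strongest call was *Tex47*, a testis-expressed gene (limma adjusted p = 6.21e-05), followed by *Dusp15*, *Cdhr4* and *Igdcc4*. *Tex47* stood at 0, 0.0540 and 0 on ND and 9.21, 11.0 and 0.196 on 60% HFD. *Tex47* and *Cdhr4* were no longer tested once ND-fed WT replicate 2 was left out too, so their test depended on that library. With the germ cell score as covariate limma called 0 genes, with 2518 at an unadjusted p below 0.05.

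The promoters of *Uhrf1* and *Pgp* are shown because 3 of the 7 called rises with a RefSeq promoter (*Uhrf1*, *Pgp* and *Sgms1*) hold TTCCCGC or its reverse complement GCGGGAA, an E2F-type motif searched on both strands and found in 4.6% of all promoters. The motif was chosen after the genes were known, and the match is a description of these letters. *Uhrf1* lies at chr17:56303087-56303386 and *Pgp* at chr17:24470176-24470475, both on the plus strand of GRCm38.p6, and capitals mark the motif.
Uhrf1: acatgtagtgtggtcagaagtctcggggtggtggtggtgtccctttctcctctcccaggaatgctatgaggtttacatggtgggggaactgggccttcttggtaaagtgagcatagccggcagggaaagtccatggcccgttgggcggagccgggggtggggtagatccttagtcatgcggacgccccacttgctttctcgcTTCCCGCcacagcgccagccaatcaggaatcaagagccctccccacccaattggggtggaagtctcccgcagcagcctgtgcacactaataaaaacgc
Pgp: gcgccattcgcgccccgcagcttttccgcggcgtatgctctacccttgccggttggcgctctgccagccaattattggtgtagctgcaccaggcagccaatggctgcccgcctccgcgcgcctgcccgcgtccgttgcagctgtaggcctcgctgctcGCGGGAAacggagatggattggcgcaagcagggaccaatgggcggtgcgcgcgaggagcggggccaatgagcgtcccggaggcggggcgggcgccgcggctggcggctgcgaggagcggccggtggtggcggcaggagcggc

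The cell proliferation list ran with *Uhrf1* and *Fen1*. Of its 18 genes 11 met the DEG criteria as higher (10.5% of all genes) and 0 as lower, and the median log2FC was 1.02. Of the list, 8 were higher without overlap between the groups (9.73% of all genes tested). Without 60% HFD replicate 3 the median was 1.39, and 15 genes met the criteria. None was called. *Mcm5*, a subunit of the replicative helicase, was at 4.06, 2.05 and 2.71 on ND and at 8.35, 10.6 and 10.0 on 60% HFD (log2FC 1.46, limma adjusted p = 0.0735), and its partner *Mcm2* at 6.28, 5.29 and 5.54 and 9.09, 11.1 and 17.8. The sliding clamp *Pcna* stood at 34.8, 29.6 and 27.5 and 57.4, 59.9 and 40.5. *Mki67*, the Ki-67 antigen of cycling cells, was at 11.8, 5.78 and 10.3 and 33.1, 31.5 and 11.9, the third value being close to the highest ND library. *Top2a* overlapped between the groups, with 7.97, 3.24 and 6.31 and 41.5, 17.2 and 7.12. With the hepatocyte covariate the median of the list was 1.02, and 4 of 18 genes met the criteria as higher (3.21% of all genes) in place of 11. The summed germ cell markers, at 0.142 to 2.83 normalized CPM on ND and 13.6 to 1070 on 60% HFD, were high in the same libraries. Their part in this list was not tested.

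**Figure D3:**
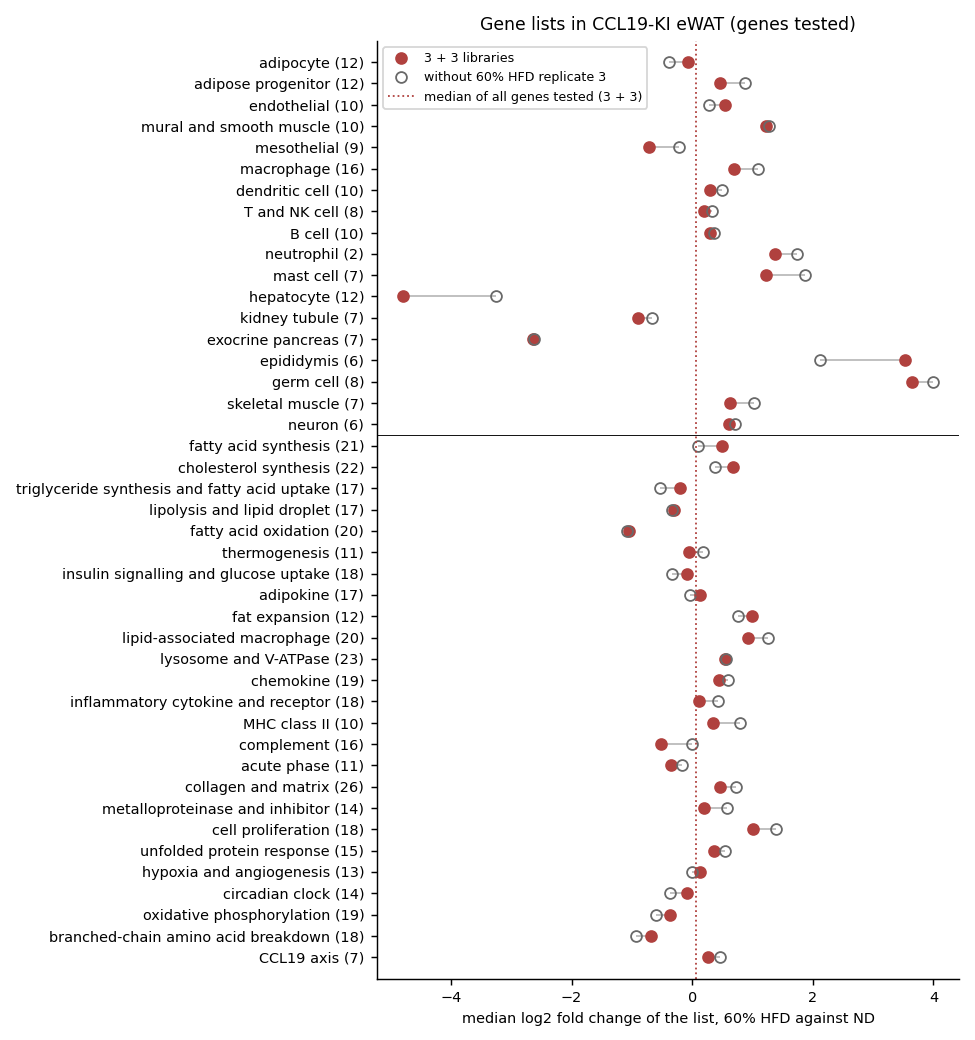
Median log2FC of each gene list, 60% HFD against ND in CCL19-KI mice without ligature; filled points use 3 + 3 libraries, open points leave out 60% HFD replicate 3, the dotted line is the median of all genes (0.07), and numbers in brackets are genes tested. Hepatocyte markers lie lowest (-4.79 and -3.25), germ cell markers highest (3.65 and 3.99), and among pathways fatty acid oxidation lies lowest and cell proliferation highest.

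Of 12 adipocyte markers 1 met the DEG criteria in each direction, and the median log2FC was -0.07, which turned to 0.23 under quantile normalization. Without 60% HFD replicate 3 it was 1 higher and 2 lower with a median of -0.38, and with the hepatocyte covariate 0 higher and 3 lower with a median of -0.86. *Adipoq*, which encodes adiponectin, was at 526, 436 and 309 on ND and 300.1, 417 and 1095 on 60% HFD, and the lipid droplet coat gene *Plin1* at 645, 234 and 192 and 248, 437 and 592, with overlap. *Lep*, the leptin gene, was at 2199, 128 and 199.5 on ND and at 1618, 1779 and 1646 on 60% HFD, so that the 60% HFD libraries were alike while ND replicate 1 exceeded them. Its log2FC was 2.13 (limma unadjusted p = 0.0253, adjusted p = 0.159) and 0.38 with the hepatocyte covariate. In bulk tissue fewer cells of a type and less RNA per cell cannot be told apart.

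Of 17 adipokine genes 3 met the DEG criteria as higher and 3 as lower, against 10.5% and 8.66% of all genes, with a median log2FC of 0.12. Without 60% HFD replicate 3 it was 2 and 3 with a median of -0.04. *Cfd*, the complement protease adipsin, was at 1040.0, 3110.3 and 2288 on ND and at 487, 386 and 458 on 60% HFD, with a log2FC of -2.14 (-2.17 without 60% HFD replicate 3, -1.95 with the hepatocyte covariate). *Rbp4*, the retinol carrier made by fat and liver, was at 319, 1028 and 1521 and 183, 238 and 183, and its log2FC of -1.99 shrank to -0.50 with that covariate. *Nrg4*, a neuregulin released by fat, was at 39.9, 48.3 and 36.9 and 13.3, 18.7 and 21.3 (log2FC -1.20). These 3 genes met the DEG criteria with adjusted p between 0.109 and 0.148. In the fat expansion list 3 of 12 genes were higher, *Egr2*, an early factor of adipogenesis, with 2.03, 1.84 and 0.472 and 5.11, 56.8 and 19.0, and *Sfrp5* and *Fgf13*, in both of which ND replicate 1 exceeded every 60% HFD library. The median of that list was 1.00, against -0.32 with 0 genes past the criteria under the hepatocyte covariate.

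Of 18 genes of insulin signalling and glucose uptake 2 met the DEG criteria in each direction, near the shares of all genes (10.5% and 8.66%), and without 60% HFD replicate 3 it was 1 higher and 3 lower with a median log2FC of -0.33 in place of -0.08. *Irs1*, the substrate that couples the insulin receptor to PI3-kinase, was at 51.7, 55.0 and 62.2 on ND and at 29.3, 23.2 and 28.9 on 60% HFD, each ND library above each 60% HFD library (log2FC -1.03 ± 0.25, SE, limma unadjusted p = 0.000911, adjusted p = 0.094). Its log2FC was -1.08 without 60% HFD replicate 3 and -1.02 with the hepatocyte covariate. *Pik3r3*, a regulatory subunit of PI3-kinase, was at 5.71, 6.91 and 4.95 and 13.6, 14.4 and 47.6, the highest value being that of replicate 3. *Grb14*, an inhibitor of the insulin receptor, was at 18.7, 39.9 and 39.2 and 12.2, 13.4 and 16.0. Among the 14 that did not meet the criteria was *Slc2a4*, the insulin-regulated glucose transporter, at 42.7, 11.8 and 9.96 and 16.4, 26.5 and 40.3.

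Genes of cholesterol synthesis that met the DEG criteria were higher on 60% HFD. In the cholesterol synthesis list 10 of 22 genes met the DEG criteria as higher (against 10.5% of all genes) and 0 as lower, with a median log2FC of 0.68. Without 60% HFD replicate 3 it was 6 of 22 (against 9.33% of all genes) with a median of 0.38. It was 3 of 22 (against 3.21% of all genes) with a median of 0.43 under the hepatocyte covariate. *Sqle*, squalene epoxidase, was nearly constant on ND at 5.05, 5.13 and 4.95 and stood at 14.2, 19.3 and 56.1 on 60% HFD (log2FC 2.10 ± 0.44, SE, limma adjusted p = 0.0755, log2FC 1.54 without 60% HFD replicate 3). *Hmgcs1*, a synthase early in the pathway, was at 231, 117 and 149 and 99.2, 211 and 191, with overlap. The highest value of both *Sqle* and the sterol demethylase *Cyp51* was in 60% HFD replicate 3.

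Fatty acid synthesis was mixed. Of 21 genes, 7 met the DEG criteria as higher and 2 as lower, against 10.5% and 8.66% of all genes, with a median log2FC of 0.50. The median was 0.10 without 60% HFD replicate 3, with 3 genes higher and 2 lower. It was -0.04 with 0 genes past the criteria under the hepatocyte covariate. *Scd2*, a desaturase that makes monounsaturated fatty acids, was at 208, 62.3 and 32.8 on ND and 257, 572 and 1152 on 60% HFD (log2FC 2.86, limma adjusted p = 0.105, 2.33 without 60% HFD replicate 3 and 1.13 with the hepatocyte covariate). *Acly*, which supplies cytosolic acetyl-CoA, was at 110.1, 128 and 113 and 123, 347 and 421, and *Fasn*, fatty acid synthase, at 969.6, 185 and 201 and 574, 963 and 2003, where ND replicate 1 lay among the 60% HFD libraries. *Acaca* had 203, 198 and 222 and 131, 167 and 267. *Elovl5*, an elongase of polyunsaturated fatty acids, was lower at 72.8, 199 and 272 against 54.4, 59.7 and 67.7, with a log2FC of -1.37 that became -0.28 with the hepatocyte covariate.

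*Pck1*, the phosphoenolpyruvate carboxykinase used in fat for glyceroneogenesis, was lower on 60% HFD. It was at 700.4, 4501 and 4204 normalized CPM on ND and at 179, 374 and 389 on 60% HFD, without overlap (log2FC -2.99 ± 0.72, SE, limma adjusted p = 0.0935), and -3.19 without 60% HFD replicate 3 and -1.68 with the hepatocyte covariate. *Gpam*, the mitochondrial acyltransferase that begins glycerolipid synthesis, was at 156, 209 and 251 and 81.5, 73.5 and 231, the overlap coming from replicate 3 alone. With that library and ND-fed WT replicate 2 left out, *Gpam* fell (log2FC -1.37, limma adjusted p = 0.0463). The list of triglyceride synthesis and uptake as a whole had 1 gene higher and 2 lower of 17 with a median log2FC of -0.20, and 0 higher and 4 lower with a median of -0.54 without 60% HFD replicate 3.

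**Figure D4:**
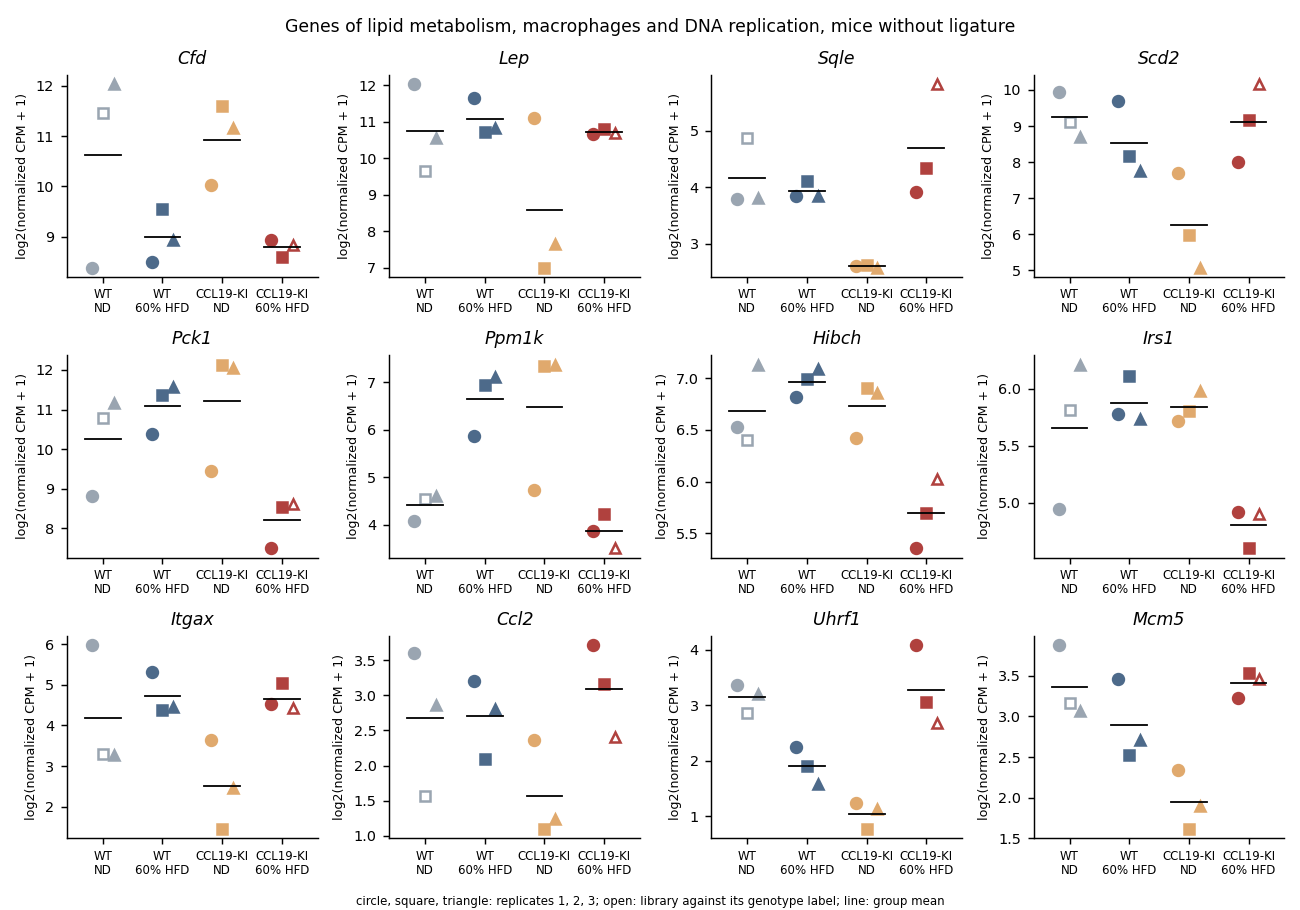
The 12 genes *Cfd*, *Lep*, *Sqle*, *Scd2*, *Pck1*, *Ppm1k*, *Hibch*, *Irs1*, *Itgax*, *Ccl2*, *Uhrf1* and *Mcm5* in the libraries without ligature, as log2(normalized CPM + 1) by genotype and diet; points are libraries, lines are group means and open symbols are the libraries against their genotype label. In CCL19-KI mice *Cfd*, *Pck1*, *Ppm1k*, *Hibch* and *Irs1* lie lower and *Sqle*, *Scd2*, *Itgax*, *Ccl2*, *Uhrf1* and *Mcm5* higher on 60% HFD without overlap, while ND replicate 1 lies among or above the 60% HFD libraries for *Lep*.

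Genes of fatty acid oxidation were lower, beside the hepatocyte markers. Of 20 genes, 12 met the DEG criteria as lower and 1 as higher, against 8.66% and 10.5% of all genes, with a median log2FC of -1.05, and -1.08 without 60% HFD replicate 3 (9 lower). With the hepatocyte covariate the median was -0.07, with 0 genes lower and 1 higher. *Ehhadh*, the peroxisomal bifunctional enzyme, was at 41.3, 1035 and 2039.7 on ND and 24.0, 34.3 and 95.0 on 60% HFD, so that ND replicate 1 lay with the 60% HFD libraries as it did for *Alb*. *Eci1*, a mitochondrial isomerase of unsaturated fatty acids, was at 84.6, 163 and 187 and 49.5, 64.6 and 58.4 (log2FC -1.25, -0.45 with the covariate). *Cpt1b*, the muscle-type carnitine palmitoyltransferase, met the criteria as higher, with 2.93, 0.972 and 4.78 and 26.1, 5.34 and 4.02 and some overlap, while the liver-type *Cpt1a* had 200.5, 463 and 566 and 189, 281 and 247. The thermogenic coactivator *Ppargc1a* had 1.46, 36.7 and 16.2 on ND and 1.25, 2.74 and 2.40 on 60% HFD, *Prdm16*, a regulator of brown fat identity, 2.50, 0.972 and 1.59 and 3.64, 12.3 and 7.31, and *Ucp1* stayed at or under 0.413 in all 6 libraries and was not tested.

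Branched-chain amino acid breakdown was lower too. Of 18 genes, 10 met the DEG criteria as lower (8.66% of all genes) and 0 as higher, and 9 were lower without overlap (8.01% of all genes). The median log2FC was -0.68, or -0.92 with 12 genes lower without 60% HFD replicate 3 (6.35% of all genes). It was -0.56 with 1 gene lower under the hepatocyte covariate (1.68% of all genes). None was called. *Hibch*, a hydrolase of valine breakdown, was at 84.6, 119 and 115 on ND and 39.9, 50.9 and 64.1 on 60% HFD, without overlap (log2FC -1.03 ± 0.21, SE, limma adjusted p = 0.0735), with -0.92 under the covariate. Leaving out both libraries that went against their labels made it a call (log2FC -1.20, limma adjusted p = 0.0407). *Dbt* and *Bckdhb*, subunits of the branched-chain ketoacid dehydrogenase, had log2FC of -1.25 and -1.16, each without overlap, and *Ppm1k*, the phosphatase that activates this complex, was at 25.4, 161 and 164 and 13.5, 17.7 and 10.4. *Ppm1k* had a log2FC of -2.61, and -0.67 with the covariate. *Bcat2*, the first enzyme of the pathway in fat, was at 52.6, 56.2 and 35.2 and 28.8, 40.8 and 58.0, with overlap.

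By their median, lipid-associated macrophage genes were higher, most of all in 60% HFD replicates 1 and 2. Of 20 genes, 7 met the DEG criteria as higher (against 10.5% of all genes) and 1 as lower, with a median log2FC of 0.93. Without replicate 3 it was 11 (against 9.33% of all genes) and 0 with a median of 1.26. None was called in either fit. With every library, 2 of the 20 genes were higher without overlap between the groups, near the share of all genes (9.73%), and 0 were lower. The summed level of the list overlapped, at 6117 to 10094 normalized CPM on ND and 7644 to 10118 on 60% HFD. With the hepatocyte covariate 1 gene met the DEG criteria as higher (against 3.21% of all genes) and the median was 0.70. *Itgax*, which encodes CD11c, was at 11.5, 1.73 and 4.54 on ND and 21.9, 31.8 and 20.4 on 60% HFD, without overlap (log2FC 2.14, limma unadjusted p = 0.00563, adjusted p = 0.115). *Trem2*, the lipid receptor of these cells, was at 16.9, 7.72 and 4.48 and 38.6, 48.8 and 12.3, and *Atp6v0d2*, a V-ATPase subunit, at 10.8, 2.97 and 1.71 and 33.6, 84.4 and 5.79. *Gpnmb* had 39.9, 29.7 and 23.0 and 119, 242 and 26.8, where replicate 3 lay within the ND range. *Spp1*, which encodes osteopontin, was low, at 1.04, 2.00 and 4.95 and 4.09, 9.88 and 1.23, and did not meet the DEG criteria (log2FC 0.59, limma adjusted p = 0.643). *Apoe*, which hepatocytes also make, was the member that was lower.

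Markers of macrophages in general were read as well. *Adgre1*, which encodes F4/80, was at 92.1, 28.7 and 37.0 on ND and 94.6, 137 and 36.9 on 60% HFD and overlapped, and *Cd68* at 31.7, 13.0 and 13.0 and 69.9, 84.4 and 30.0 met the DEG criteria (log2FC 1.63). The macrophage list had 2 of 16 genes higher, near the share of all genes (10.5%), with a median log2FC of 0.69. Without 60% HFD replicate 3 it was 9 of 16 (against 9.33% of all genes) with a median of 1.10. With the hepatocyte covariate 0 met the criteria and the median was 0.22. Of 23 lysosome and V-ATPase genes 7 met the criteria as higher (against 10.5% of all genes) and 1 as lower, with a median of 0.55. Without 60% HFD replicate 3 it was 4 as higher (against 9.33% of all genes) and 0 as lower. Under the hepatocyte covariate it was 0 with a median of 0.12. *Lamp1* and *Lamp2*, abundant lysosomal membrane proteins, were not among them.

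Monocyte chemokines were higher at low levels. *Ccl2* was at 4.15, 1.13 and 1.36 on ND and 12.1, 7.93 and 4.32 on 60% HFD, without overlap (log2FC 1.53, limma adjusted p = 0.126, 1.87 without 60% HFD replicate 3), and its relative *Ccl7* at 7.08, 0.540 and 1.83 and 15.4, 10.3 and 6.92. Of 19 chemokine genes, 5 met the DEG criteria as higher (10.5% of all genes did) and 0 as lower. Without 60% HFD replicate 3 it was 7 as higher (9.33% of all genes). Among cytokines *Tgfb1* was at 25.6, 11.4 and 13.1 and 28.6, 42.4 and 34.1, without overlap (log2FC 1.09), one of 2 genes of 18 on that list to meet the criteria, against 5 without 60% HFD replicate 3. *Tnf* was at 0.189, 0.270 and 0.177 and 1.19, 0.721 and 0.344, under the level needed for a test, and *Il1b* at 0.472, 0.324 and 1.06 and 0.568, 0.649 and 0.785 (log2FC 0.07).

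The partners of CCL19 showed no called difference. Beside *Ccl19* itself, whose log2FC of -1.58 became -0.77 without 60% HFD replicate 3, the receptor gene *Ccr7* was at 0.991, 0.864 and 1.47 on ND and 2.22, 1.59 and 1.33 on 60% HFD (log2FC 0.36, limma adjusted p = 0.359). *Ccl21a*, the other CCR7 ligand, was at 5.28, 7.83 and 57.3 and 89.8, 151 and 10.6, with overlap. T cell genes such as *Cd3e*, at 0.944, 0.810 and 0.472 and 1.25, 1.08 and 0.834, were near 1 in both groups, and 0 of 8 tested T and NK cell genes and 0 of 10 MHC class II genes met the DEG criteria. *Ighm*, the IgM heavy chain, was at 325, 48.3 and 35.9 and 332, 257 and 266, ND replicate 1 lying at the level of the 60% HFD group.

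Mast cell genes were higher in 60% HFD replicates 1 and 2. *Cpa3* was at 3.11, 5.51 and 6.07 on ND and 34.7, 18.7 and 3.88 on 60% HFD, and *Mcpt4* at 4.39, 7.13 and 9.20 and 55.2, 31.7 and 6.82, both mast cell proteases. Of 7 mast cell markers, 1 met the DEG criteria as higher (*Kit*, log2FC 1.01), against 10.5% of all genes. Without 60% HFD replicate 3 it was 4 of 7, against 9.33% of all genes, with a median of 1.87 in place of 1.23. *Lcn2*, a siderophore-binding protein of neutrophils and epithelia, was at 15.1, 7.35 and 7.43 and 42.7, 1007 and 36.5, the 60% HFD replicate 2 standing alone as it did for the epididymal gene *Adam7* (14.9, 1711 and 9.23 on 60% HFD).

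Matrix, complement and hypoxia genes differed in some members, beside 10.5% of all genes higher and 8.66% lower. Of 26 collagen and matrix genes 2 met the DEG criteria, *Col4a2* and *Tnc*, and *Col1a1* was at 1388, 612 and 582 on ND and 806, 1436 and 460.3 on 60% HFD. Complement had 5 genes lower and 1 higher of 16, with *C3* at 5322, 5435 and 6133 and 4647, 3313 and 924, where replicate 3 was the lowest, and 2 lower and 4 higher without that library. *Bnip3*, a mitophagy receptor induced by low oxygen, was at 462, 646 and 565 and 285, 321 and 254, without overlap (log2FC -0.95, limma adjusted p = 0.0791, -0.66 with the hepatocyte covariate), and *Ldha*, lactate dehydrogenase, at 466, 885 and 758 and 315, 333 and 382. No gene of the circadian clock (14), oxidative phosphorylation (19) or mesothelial (9) lists met the DEG criteria. Without 60% HFD replicate 3, 4 of the 19 oxidative phosphorylation genes did, as lower, and their median log2FC was -0.60 in place of -0.37.

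The other lists are given by count, beside the shares of all genes that met the DEG criteria, 10.5% higher and 8.66% lower. Some lists exceeded these shares and others lay near or below them. Among markers, 3 of 10 endothelial genes were higher, as were the 2 neutrophil genes tested of the 7 measured. For B cell genes it was 1 of 10, and for adipose progenitor genes 1 of 12, against 5 without 60% HFD replicate 3. Of 10 mural and smooth muscle genes 3 were higher, 1 of 10 dendritic cell genes was, of 6 neuron genes 2 were higher and 1 lower, and 0 of 7 skeletal muscle genes differed. Lipolysis and lipid droplet genes had 0 higher and 4 lower of 17, thermogenesis genes 3 higher and 4 lower of 11, metalloproteinases and inhibitors 3 higher of 14, the unfolded protein response 2 higher of 15 and acute phase genes 1 in each direction of 11. None of these was called.

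Lead genes of these lists were named whatever they did. The lipases that release fatty acids from fat overlapped between the diets, with *Pnpla2*, adipose triglyceride lipase, at 1036, 887 and 696 on ND and 485, 667 and 1040.5 on 60% HFD and *Lipe*, hormone-sensitive lipase, at 625, 374 and 316 and 312, 439 and 686. The insulin receptor *Insr* was at 103, 176 and 209 and 68.1, 119 and 140.4, and *Vegfa*, the growth factor of blood vessels, at 70.4, 105 and 101 and 35.0, 50.4 and 99.9. *Pecam1*, which encodes the endothelial antigen CD31, met the DEG criteria as higher, with 16.9, 14.1 and 18.8 and 15.3, 32.2 and 81.1, the highest value being that of 60% HFD replicate 3, without which its log2FC of 1.02 was 0.41. *Pdgfra*, a receptor of adipose progenitors, was even on ND at 83.7, 92.4 and 89.9 and spread on 60% HFD at 119, 265 and 57.1. The MHC class II chain *H2-Aa* was at 422, 135 and 166 and 336, 380.1 and 134.

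Other lead genes that met the DEG criteria were *Acta2*, *Dio2*, *S100a8* and *Cst8*, higher on 60% HFD, and *Apoa1*, *Bckdha* and *Slc34a1*, lower. *Acta2*, the smooth muscle actin of vessel walls, was at 266, 133 and 66.6 on ND and 589, 356 and 259.6 on 60% HFD, and *S100a8*, a calcium-binding protein of neutrophils, at 14.5, 0.648 and 1.18 and 22.3, 25.7 and 5.69. *Ccl3*, *S100a9* and *Snap25* were too low to test. *Acta1*, *Arntl*, *C4b*, *Cd3d*, *Cdh5*, *Cela1*, *Ckm*, *Clock*, *Col1a2*, *Ddit3*, *Dgat2*, *Dpp4*, *Flt3*, *Gpat3*, *H2-Ab1*, *Hif1a*, *Hspa5*, *Mest*, *Mmp2*, *Mmp3*, *Ms4a1*, *Msln*, *Myh11*, *Ndufa9*, *Ndufs1*, *Saa3*, *Syt1*, *Upk3b* and *Xcr1* did not meet the criteria.

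Genes that the study named in this depot were also read. *Onecut1*, a liver and pancreas transcription factor, was at 1.51, 41.8 and 44.6 on ND and 0.909, 1.37 and 0 on 60% HFD, *Acot3*, a peroxisomal thioesterase, at 0.849, 11.9 and 53.5 and 0.682, 1.66 and 0, and *Kap*, the kidney androgen-regulated protein, at 1.93, 20.0 and 18.6 and 0.682, 0.721 and 0, all 3 with high values in the ND libraries rich in *Alb*. With the hepatocyte covariate their log2FC were -0.18, 0.21 and -0.05. *Cyp2b9*, at 0.613, 0 and 0.531 and 3.18, 7.14 and 0.245, *Cyp2a22*, at 0.0472, 0.270 and 1.42 and 0.682, 1.59 and 0, and *Srp54b*, at 57.1, 43.3 and 41.7 and 43.6, 49.7 and 31.2, did not meet the DEG criteria.

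The diet difference of CCL19-KI mice was set against that of WT mice, which share no library with it. In WT 380 of 16923 genes were called (2.25%), 365 higher and 15 lower, and the difference of the diet effect between genotypes was called for 1457 genes (8.61%), 532 with the higher log2FC in CCL19-KI mice (3.14%) and 925 with the lower (5.47%). With both libraries that went against their labels left out this was 675 genes (4.1% of 16451). With the hepatocyte covariate it was 1 gene, *Apoa4*, a liver and gut apolipoprotein. *Mup7*, with a log2FC of 10.56 in WT, had the smallest adjusted p (9.24e-05). Of 12 hepatocyte markers 11 were among the calls. Single libraries moved the count to 2850 without CCL19-KI ND replicate 1, 583 and 561 without ND replicates 2 and 3, 572 and 566 without WT 60% HFD replicates 2 and 3 and 853 without WT ND replicate 2. The WT count was 62 and 130 without WT 60% HFD replicates 3 and 2 and between 204 and 222 without any one of the 3 WT ND replicates. *Muc5ac*, a gel-forming mucin, was among the 10 smallest adjusted p because of WT, where its log2FC was -2.51, and stayed at or under 0.147 in the CCL19-KI libraries. It was no longer tested once both libraries that went against their labels were left out, so its test depended on WT ND replicate 2.

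Metabolic genes were called for this difference as well. In all, 9 of 20 fatty acid oxidation genes and 7 of 18 branched-chain amino acid genes had a lower diet effect in CCL19-KI than in WT mice, against 5.47% of all genes. Their medians in WT were 1.01 and 0.38 against -1.05 and -0.68 in CCL19-KI. Without both libraries that went against their labels *Ehhadh*, *Eci1*, *Dbt* and *Bckdhb* were not called (limma adjusted p between 0.0567 and 0.0936), while *Ppm1k* was (adjusted p = 0.0361). *Irs1* had a log2FC of 0.22 in WT and -1.03 in CCL19-KI (limma adjusted p of the difference 0.0412), and *Hibch* of 0.28 and -1.03 (limma adjusted p = 0.0177), and without both libraries that went against their labels *Hibch* stayed called (limma adjusted p = 0.0333) and *Irs1* did not (adjusted p = 0.0738). *Uhrf1*, at 9.30, 6.29 and 8.20 in ND-fed and 3.75, 2.75 and 2.00 in 60% HFD-fed WT mice, had the higher diet effect in CCL19-KI mice (limma adjusted p = 0.0025), as did 3 genes of the proliferation list, *Mcm5*, *Mcm2* and *Cdc20*, a mitotic activator of protein breakdown. Without both libraries *Uhrf1* and *Mcm5* stayed called (limma adjusted p = 0.00915 and 0.0427) and *Mcm2* and *Cdc20* did not (adjusted p = 0.0649 and 0.0584). No lipid-associated macrophage gene was called for it. Of all genes 28.54% had the same sign in both genotypes, and of the 3240 that met the DEG criteria in CCL19-KI 10.22%, which is a description across genes that share libraries.

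Ligatured CCL19-KI mice gave the same diets in 6 other libraries. There 3711 of 16653 genes were called (22.3%), 2131 higher (12.8%) and 1580 lower (9.49%), a count that was 1460 and 2407 without ND replicates 2 and 3 and 1639 without 60% HFD replicate 1. *Lep* rose (log2FC 2.89, limma adjusted p = 0.00089) and *Cfd* fell (log2FC -3.08, adjusted p = 0.00386), both in the direction seen without ligature. *Itgax* rose there as well (log2FC 2.94, limma adjusted p = 0.00549). Of 20 lipid-associated macrophage genes 14 were called higher. Fatty acid oxidation ran the other way, with 16 of 20 genes called higher and a median of 1.45, and *Alb* had a log2FC of 6.28. *Irs1* (-0.18), *Hibch* (0.13) and *Uhrf1* (0.11) were not called. Of the genes tested in both, 51.07% had the same sign, and the difference between ligatured and unligatured mice was not tested.

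**Figure D5:**
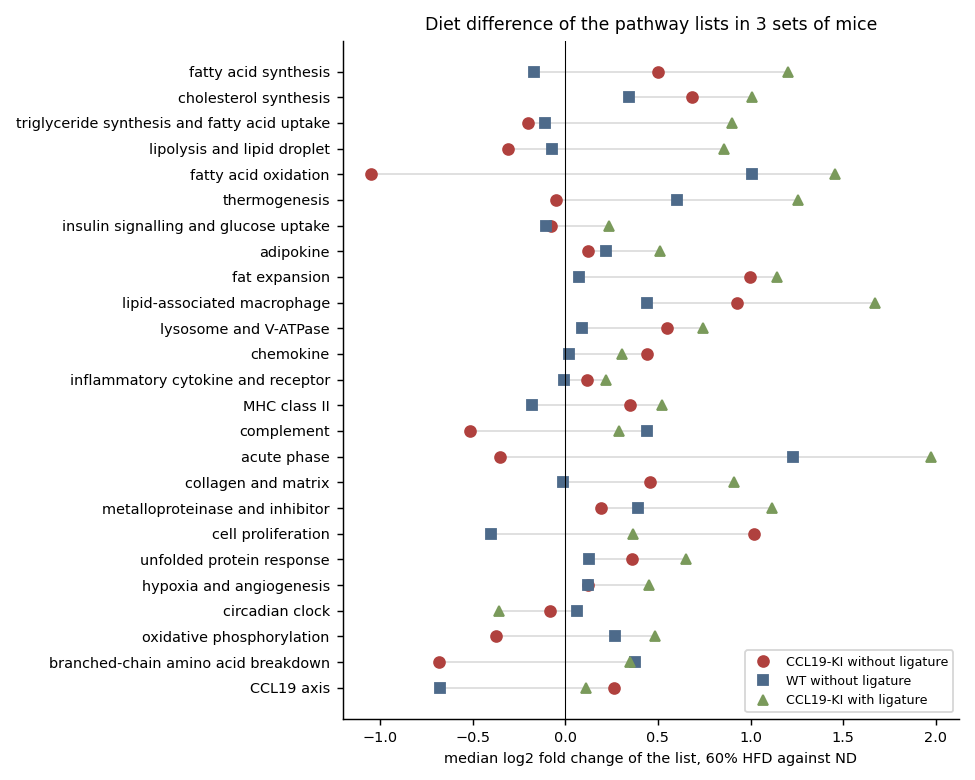
Median log2FC of the 25 pathway lists, 60% HFD against ND, in CCL19-KI mice without ligature (circles), WT mice without ligature (squares) and CCL19-KI mice with ligature (triangles). For fatty acid oxidation the circle lies at -1.05 and the others at 1.01 and 1.45, for lipid-associated macrophage genes all 3 lie above 0, and for cell proliferation the circle lies highest at 1.02.

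The 40% HFD group of unligatured CCL19-KI mice shares the ND controls and is given only beside the other values. *Uhrf1* was at 2.79, 3.01 and 5.02 normalized CPM in its 3 libraries, *Sqle* at 6.08, 8.02 and 5.39 and *Irs1* at 74.2, 56.0 and 56.2. *Cfd* was at 2305, 1076 and 1106, *Itgax* at 9.48, 13.2 and 14.3 and *Lep* at 1397, 1565 and 1384. *Alb* was at 3877, 23726 and 14444 and *Mup7* at 1093, 3623 and 2626, both far above the 60% HFD libraries.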

How the data were processed

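RNA of epididymal white adipose tissue was sequenced after rRNA depletion and directional library preparation. Per the submitters' processing notes, reads were trimmed with Trimmomatic 0.38 and counted per gene with RSEM 1.3.0 on Bowtie2 alignments, and the authors deposited one table whose signal values are CPM normalized with edgeR, for 24750 genes in 36 libraries. The notes give GRCm39 and the study's methods mm10. Coordinates and symbols here come from GENCODE M21 (GRCm38), which holds 24626 of the gene IDs. Dividing each value by what 1 read is worth gave whole reads within 0.01 for every value, so the depth of each library (11962228 to 21581595 reads) could be recovered. Limits given for 3 reads cover counting error only.

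Genes that reached 1 normalized CPM in 3 or more of the 18 unligatured libraries were tested with limma 3.58.1 (R 4.3.3; trend, pseudocount 1, no replicate block) as contrasts of group means of all 6 such groups, and the ligatured mice in a fit of their own 18 libraries. Limma was planned for the deposited normalized CPM in place of the count model of the authors, and was kept although whole reads could be recovered. The count model, edgeR 4.0.16 on recovered reads, was an alternative. Alternatives were another pseudocount (0.1 or 5), filter, scaling, fit, quality weights, a replicate block and leaving out single libraries. The covariates for hepatocyte, epididymis and germ cell scores (mean log2 value of the list) and the omission of both libraries that went against their genotype labels were chosen after seeing the data. In simulated data with 200 genes changed among 17233, limma called 6 of 61 genes changed by 2-fold, 41 of 69 by 4-fold and 52 of 67 by 8-fold. The DEG criteria were met by 799 genes there, 164 of them changed, and by 653 of 17205 with no gene changed. Each gene was drawn on its own around its mean, without the swings of liver and male tract markers that the libraries here share.

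The comparison, the 43 gene lists (594 genes) and the members were chosen with earlier results of these data known. Genes were named by a rule. It took up to 12 called genes in each direction with the largest log2FC and no overlap, filled up with genes that met the DEG criteria, then 8 each way without 60% HFD replicate 3. It added the first 2 genes of each list and its called members (at most 4), the genes the study names in eWAT, and the 10 with the smallest adjusted p for the difference between genotypes. The following were chosen after their values were seen: *Acly*, *Apoa4*, *Apoe*, *Bckdhb*, *Bnip3*, *Ccl21a*, *Ccl7*, *Cdc20*, *Cfd*, *Col4a2*, *Cyp51*, *Dbt*, *Eci1*, *Egr2*, *Ehhadh*, *Elovl5*, *Fgf13*, *Gm4202*, *Gpam*, *Grb14*, *Hibch*, *Ighm*, *Irs1*, *Itgax*, *Kit*, *Ldha*, *Mcm2*, *Mcm5*, *Nrg4*, *Pck1*, *Pcna*, *Pik3r3*, *Ppargc1a*, *Ppm1k*, *Prdm16*, *Rbp4*, *Scd2*, *Sqle*, *Tgfb1* and *Tnc*. Promoters are those of RefSeq (GRCm38.p6). The 2 *St6galnac2* genes and the MUP genes share sequence, so their counts may be split. Some genes that the naming rule took are not reported here.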

Additional observations from a re-analysis of the deposited data

Results flagged for a closer look

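The effect of 60% HFD differed between unligatured CCL19-KI and WT mice for 1457 genes, tested with the interaction term of the limma fit. Of the 159 named genes tested, 57 were among them, and 56 of these had diet effects of opposite sign in the genotypes. Without CCL19-KI 60% HFD replicate 3 and WT ND replicate 2, 35 of the 57 were called and 22 were not called or no longer tested. Values in brackets are the log2FC in CCL19-KI minus that in WT.

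Liver, kidney and related genes had the lower value in CCL19-KI mice, namely *Mup7* (-18.9), *Mup19* (-16.8), *Serpina1e* (-16.1), *Mup14* (-15.8), *Mup11* (-15.6), *Alb* (-15.3), *Mup3* (-14.8), *Mup1* (-14.4), *Apoa1* (-14.3), *Mup15* (-13.6), *Cyp3a11* (-12.7), *Mup17* (-12.6), *Mup16* (-11.8), *Mup12* (-11.4), *Kap* (-8.85), *Acot3* (-8.33), *Slc34a1* (-7.23) and *Onecut1* (-6.6). Metabolic genes with the lower value were *Ehhadh* (-6.39), *Ppm1k* (-4.83), *Pck1* (-3.83), *Rbp4* (-3.35), *Elovl5* (-2.62), *Eci1* (-2.18), *Dbt* (-1.67), *Bckdhb* (-1.61), *Bnip3* (-1.43), *Hibch* (-1.32) and *Irs1* (-1.25). The part of the hepatocyte markers in these differences was not tested gene by gene, and with the hepatocyte score as covariate the count was 1 in place of 1457.

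The genes that rose in CCL19-KI mice had the higher value there, namely *Trim36* (5.73), *St6galnac2* (5.2), *St6galnac2* (3.53), *Uhrf1* (3.46), *Cnbd2* (2.86), *Fhdc1* (2.58), *Gm4202* (2.48), *Gm49337* (2.14), *Pgp* (2.08), *Med24* (1.76), *Fen1* (1.73), *Sgms1* (1.58), *Rdh11* (1.49) and *Rrp1* (0.971), the entries of *St6galnac2* being for each gene of that symbol. Genes called or high without 60% HFD replicate 3 and germ cell markers were *Prm2* (7.8), *Prm1* (6.33), *Tex47* (3.02), *Dusp15* (2.7), *Cdhr4* (1.95) and *Igdcc4* (1.35). The others were *Muc5ac* (2.6), *Cdc20* (2.4), *Sqle* (2.32), *Acly* (2.31), *Pik3r3* (2.26), *Mcm5* (1.93), *Tgfb1* (1.55) and *Mcm2* (1.38).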

How the results depend on the processing

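The count of 21 called genes was 11 with a pseudocount of 5, 34 after quantile normalization, 39 with the replicate block, 1821 in a fit of all 36 mice and 5938 with sample quality weights, whose estimation did not converge. It was 0 in a fit of only the 2 groups compared, 0 with the hepatocyte score, 0 with the germ cell score, 0 with hepatocyte and epididymis scores together (unadjusted p below 0.05 for 1697, 946, 2518 and 1119 genes by limma) and 11 with the epididymis score as covariate. Leaving out both libraries that went against their labels gave 63, and single libraries 0 to 2252.

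The 3240 genes that met the DEG criteria were 2152 with a pseudocount of 5, 2038 with a mean of at least 5, 1582 in the fit of only the groups compared, 5667 with quality weights, 828 with the hepatocyte score, 1016 with both scores, 1895 with a ratio of 2 and 1802 to 4694 without single libraries. The 1457 genes of the difference between genotypes were 2605 with edgeR, 3887 with all 36 mice, 7848 with quality weights, 1, 426, 10 and 0 with the hepatocyte, epididymis, germ cell and joint scores (unadjusted p below 0.05 for 1161 with the joint scores), 675 without both libraries and 561 to 2850 without single libraries. The 380 called genes of WT mice were 142 with a pseudocount of 5, 689 in the fit of only the groups compared, 608 with all 36 mice, 4429 with quality weights, 0, 181, 133 and 1 with the 4 sets of scores (unadjusted p below 0.05 for 1726 with the hepatocyte score), 200 without both libraries and 62 to 382 without single libraries. The 3711 of ligatured CCL19-KI mice were 1801, 2284, 9671, 1458, 825 and 187 with only the groups compared, all 36 mice, quality weights and the hepatocyte, epididymis and joint scores, and 1460 to 4461 without single libraries. The cause of these shifts was not tested.

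Replicate numbers did not pair the samples (correlations of deviations 0.0773, -0.0599 and -0.133), and the replicate block gave 39 calls here and 1368, 365 and 3655 in the other comparisons. No called gene reversed its direction under any alternative run. Of 43 list medians 24 changed sign under at least 1 alternative. Under the other scalings run that was 1, adipocyte markers (-0.07 to 0.23 after quantile normalization). With the hepatocyte score it was 12, among them fat expansion (1.00 to -0.32), fatty acid synthesis (0.50 to -0.04), collagen and matrix (0.46 to -0.10) and MHC class II (0.35 to -0.03), and without 60% HFD replicate 3 it was adipokine (0.12 to -0.04), thermogenesis (-0.05 to 0.18) and hypoxia and angiogenesis (0.12 to -0.00314). At this depth and with 3 libraries a group, 2-fold changes were rarely called in simulated data.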
